A study of Drosophila virilis and Drosophila willistoni and Drosophila miranda with 119 samples.

Results

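The 32 genes described here are the translation initiation and termination factors of a table of 17674 Drosophila genes: every gene whose symbol begins with eIF or eRF, and the genes 4EHP and 4E-T. They were taken by name and not by their values. Of the 32, 24 had values at both stages in at least 10 species and a mean of at least 1 FPKM, a read density corrected for transcript length and library depth, and were tested for a change between stages. The 8 that were not tested are accounted for below.

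The mRNA of 119 single embryos of 14 species was sequenced, 64 at stage 2 and 55 at stage 5, with 3 to 7 embryos in each group. At stage 2 the mRNA comes from the mother, and at stage 5, the cellular blastoderm, the genome of the embryo is active. The authors' tables hold 1 FPKM value per gene, species and stage, with the embryos of a group combined, so species served as replicates, and 13 species had both stages. The labels name no mutation or treatment, and all flies were kept on molasses food.

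The species were D. melanogaster (stage 2 only here), D. simulans, D. sechellia, D. mauritiana, D. yakuba, D. santomea and D. erecta of the melanogaster subgroup, D. pseudoobscura, D. persimilis and D. miranda of the obscura group, and D. ananassae, D. willistoni, D. mojavensis and D. virilis. Embryos of D. miranda had MSH22 mothers and SP138 fathers, and those of D. pseudoobscura had Flagstaff 14 mothers and PP1134 fathers. For the other species the labels give no strain. In D. mojavensis, D. persimilis, D. santomea, D. sechellia, D. simulans and stage 2 D. virilis the raw reads also held a small amount of D. melanogaster mRNA, per the labels. All D. pseudoobscura and D. miranda libraries came from earlier work, are labelled total RNA where the others are labelled polyA RNA, and have stage 5 samples titled latest5, which alone carry a sex, female or male, and 1 stage 2 embryo of D. pseudoobscura is marked as possibly unfertilized.

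Translation of most mRNAs begins when eIF4E binds the cap at the 5′ end, the scaffold eIF4G joins it, and the helicase eIF4A, with eIF4B, unwinds the leader. The small ribosomal subunit arrives with eIF3, eIF1A and eIF2, which carries the initiator tRNA and is recharged with GTP by eIF2B, and eIF5 and eIF5B then take part in start site recognition and subunit joining. eRF1 reads stop codons and releases the chain. In the fly egg and early embryo, maternal mRNAs are held silent or switched on largely at the cap: 4EHP, 4E-BP (the gene Thor), Cup and 4E-T bind the cap or eIF4E and limit the assembly of this complex.

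The stages had the content their names call for. All 4 maternal marker mRNAs (osk, bcd, nos, aret) fell, and their summed level went from 443.03 to 1158.1 FPKM at stage 2 down to 3.56 to 67.3 at stage 5. All 6 zygotic markers (ftz, eve, Kr, twi, sna, sog) rose, from sums of at most 4.03 to sums between 540 and 1712 FPKM. Among markers of other sources, the 11 eggshell and yolk genes summed to at most 9.53 FPKM at stage 2 and 12.4 at stage 5, with Cp15, Cp16, Cp19, Cp36 and Cp38 at a median of 0 at both stages. The 6 testis genes summed to 0.355 to 72.0 FPKM at stage 2 and 0.435 to 198 at stage 5, with bam the highest of them by median, and bam was called lower at stage 5 (-1.75 ± 2.32, SD, n = 13 species), while dj was listed at 0 wherever it had a value. The part of any of these in the results below was not tested.

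The mRNA of the cap-binding protein eIF-4E fell in every species measured, and those of the related cap-binding protein 4EHP and of the scaffold copy eIF4G2 fell in nearly all, while the helicases eIF-4a and eIF4AIII, all 5 named eIF3 subunits, eIF-5A and eIF5 rose in every species measured. Of the 24 tested, 13 rose, 3 fell and 8 were not called (limma; a call required an adjusted p below 0.05 and, in log2(FPKM + 1), a mean change of 1 or more in size). Among all 7225 genes tested, 30.9% rose and 16.5% fell by the same call. The median change of the 24 was 1.06 and that of all tested genes 0.39.

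How many factors rose depends on the scale on which the stages are compared, which the sources used here do not give. The total FPKM of genes below 100000 FPKM was higher at stage 5 in every species, by 1.99 to 3.62 times with a median of 2.63, and the median gene was higher by 0.37 ± 0.08 in log2 units (SD over 13 species). With each species centred on its median gene, 9 factors rose and 4 fell, against 22.1% and 22.9% of all tested genes: eRF1, eIF4G, eIF-1A and eIF2B-alpha lost the call and eIF5B gained it. Quantile normalization left 1 rising and 5 falling, against 17.9% and 21.1%, and scaling both stages to the same total of genes below 100000 FPKM left 1 rising and 8 falling, against 8.58% and 41.3%. eIF4AIII rose and eIF-4E, 4EHP and eIF4G2 fell under each of these 4 scalings, and the changes of eIF-4a, eIF-5A and the eIF3 subunits stayed positive. An FPKM value is a share of a library, so more of an mRNA per embryo and less of the others cannot be told apart; ratios between factors within a species and stage, given below, are unaffected by any scaling that multiplies a whole column by 1 factor, which quantile normalization does not.

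**Figure D1:**
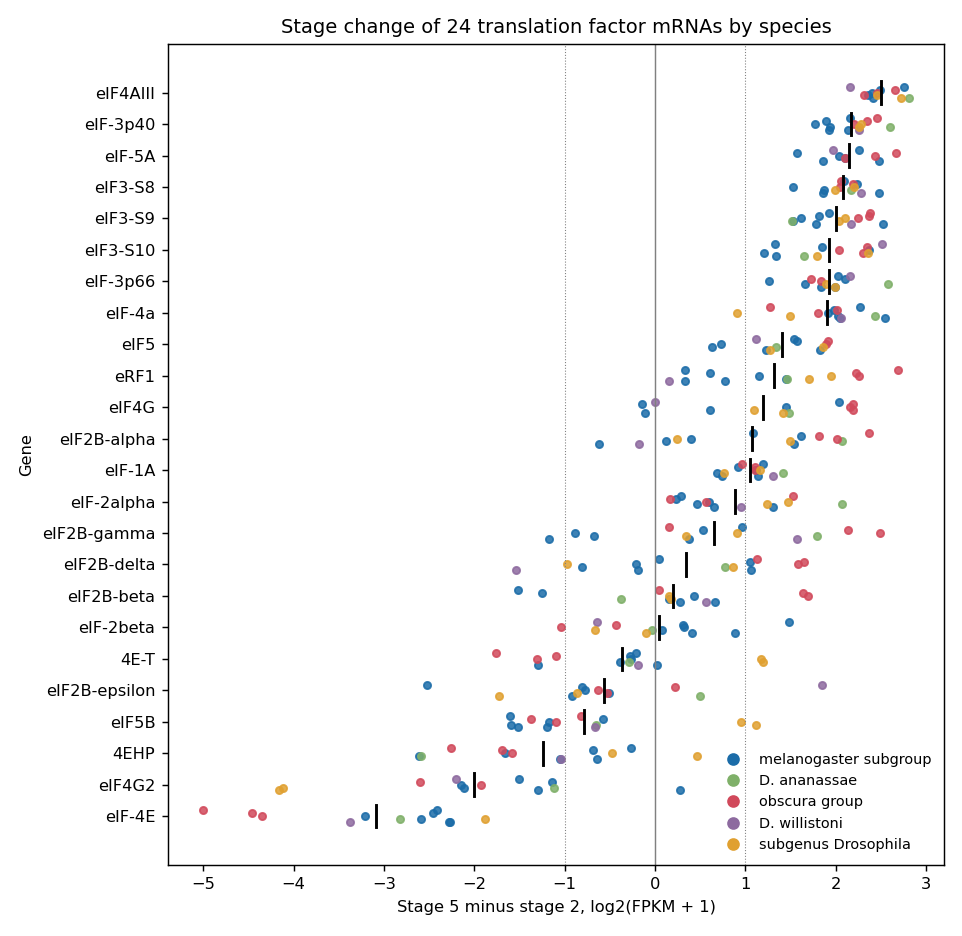
Stage 5 minus stage 2 on the log2(FPKM + 1) scale for the 24 tested factors; each point is a species, coloured by clade, and the black bar is the mean over species. Dotted lines mark changes of -1 and 1, and eIF-4E, at the bottom, lies below -1 in all 12 species.

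eIF-4E encodes the main cap-binding protein of the fly. At stage 2 its mRNA was at 361.5 FPKM in D. pseudoobscura, the lowest of 13 species, at 434.7 in the median and at 498.9 in D. simulans, the highest. By stage 5 it was at 11.8 FPKM in D. miranda, 72.5 in the median and 111.9 in D. virilis. The stages did not overlap: the highest stage 5 level was below the lowest stage 2 level. On the log2 scale the stage 2 levels lay close together while the stage 5 levels were spread widely. In all, 8 of the 24 tested factors had stages that did not overlap, against 13% of all genes tested; besides eIF-4E these were eIF-4a, eIF4AIII, eIF-5A, eIF3-S8, eIF3-S9, eIF3-S10 and eIF-3p40.

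In log2(FPKM + 1), eIF-4E fell by 3.09 ± 1.01 (SD over 12 species), lower in 12 of 12 (adjusted p = 4.6e-08), and its mean change ranked 175 from the lowest among the 7225 tested genes. D. mojavensis has no eIF-4E value. The steepest change was -5.0 in D. miranda and the shallowest -1.88 in D. virilis. When the relatedness of the species was put into the fit (phylogenetic least squares on the species tree), eIF-4E was the only factor still called lower, at -2.96 (adjusted p = 0.000766). In a second handling of relatedness, limma on 1 mean per clade (6 clades), eIF-4E, 4EHP and eIF4G2 were all called lower.

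4EHP encodes a cap-binding protein that does not bind eIF4G and represses the maternal mRNAs of caudal and hunchback. Its mRNA was at 3.79 FPKM in D. miranda at stage 2, at 63.3 in the median and at 105 in D. sechellia. At stage 5 the values were 3.38e-08 FPKM in D. miranda, a value that may be a failed estimate, 31.2 in the median and 69.1 in D. virilis. The stages overlapped, and D. miranda stood below all other species at both. The change was -1.24 ± 0.93 (SD, n = 13 species, adjusted p = 0.000427), lower in 12 species and higher in D. mojavensis, where it went from 41.6 to 57.9 FPKM. It was no longer called with relatedness in the fit (-1.08, adjusted p = 0.434), but was called with 1 mean per clade (-1.30, limma, adjusted p = 0.0154).

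Within a species, eIF-4E stood above 4EHP at stage 2 in 13 of 13 species, by 2.91 ± 1.13 on the log2(FPKM + 1) scale (SD; exact two-sided sign-flip permutation test over species, p = 0.000244, the smallest it can give, adjusted p = 0.00171 over 63 comparisons of copies). In FPKM, eIF-4E was 7.06 times as high as 4EHP in the median species. By stage 5 the difference was 1.22 ± 1.23 (SD, n = 12), in the same direction in 11 species (exact test, p = 0.00342, adjusted p = 0.00769), and in D. pseudoobscura eIF-4E was at 16.7 FPKM and 4EHP at 27.5. In the species not labelled as mixed with D. melanogaster the stage 5 difference was 1.34 with p = 0.0625 by the exact test. The change itself was more negative for eIF-4E than for 4EHP by 1.71 ± 0.92, in 11 of 12 species (exact test, p = 0.000977, adjusted p = 0.00293). The exception was D. sechellia, with -2.59 for eIF-4E beside -2.61 for 4EHP.

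**Figure D2:**
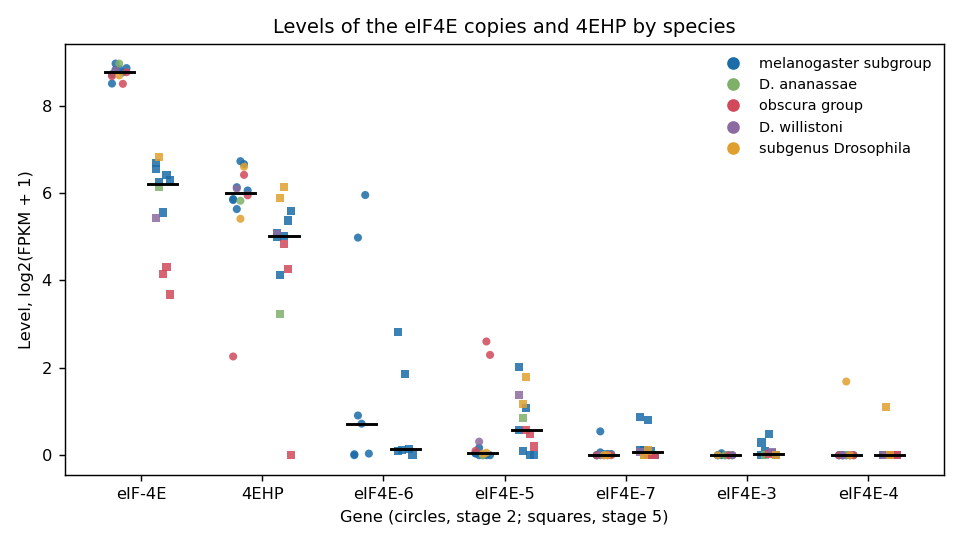
Level of each eIF4E copy and of 4EHP, in log2(FPKM + 1), by species at stage 2 (circles) and stage 5 (squares); black bars are medians over species with a value. eIF-4E and 4EHP are the copies well above 0 in nearly all species, with medians of 434.7 and 63.3 FPKM at stage 2.

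The other 5 copies, eIF4E-3, eIF4E-4, eIF4E-5, eIF4E-6 and eIF4E-7, are paralogs of eIF-4E, several of them known from the testis of D. melanogaster. None was tested between stages over all genes, 4 because their mean was below 1 FPKM and eIF4E-6 because it had values at both stages in only 6 species. eIF4E-3 was at no more than 0.0324 FPKM at stage 2 in 11 species, and its highest stage 5 value was 0.404 in D. mauritiana. eIF4E-7 reached 0.459 FPKM at stage 2 and 0.834 at stage 5, both in D. simulans.

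eIF4E-4 was at 2.22 FPKM at stage 2 and 1.14 at stage 5 in D. mojavensis and listed at 0 in nearly every other species. eIF4E-5 was at 5.08 FPKM in D. pseudoobscura and 3.91 in D. persimilis at stage 2 but at 0.0710 in D. miranda, the third species of that group, and its highest stage 5 value was 3.05 in D. erecta. eIF4E-6 was at 30.6 FPKM in D. simulans and 61.1 in D. mauritiana at stage 2, against 0.649 in D. sechellia, the third member of the simulans complex, and at stage 5 it was highest in D. erecta with 6.07. These copies are similar in sequence to each other and to eIF-4E, so reads may have been split between them by the authors' quantification, and their low values are uncertain. eIF-4E was above each of them at both stages in every species in which both were measured.

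eIF4G is the scaffold that links eIF-4E to the helicase and, through eIF3, to the ribosome. Its mRNA was at 64.0 FPKM in D. willistoni, 90.4 in the median and 107 in D. sechellia at stage 2, and at 64.0, 231.9 and 422 FPKM at stage 5, lowest in D. willistoni and highest in D. miranda. The stages overlapped. It rose by 1.20 ± 0.91 (SD, n = 12 species, adjusted p = 0.00045), higher in 10 of 12, with changes of -0.11 in D. sechellia and -0.14 in D. santomea and of 2.16 to 2.19 in the obscura group. Centred on the median gene, the change of eIF4G was 0.82 and was not called, and scaled to the same total it was -0.15. With relatedness in the fit it was 1.10 (adjusted p = 0.478), and with 1 mean per clade 1.05, which was called (limma, adjusted p = 0.0148).

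Set against eIF4G in the same species and stage, eIF-4E was in excess at stage 2 and scarce at stage 5. The ratio of their FPKM was 3.96 in D. virilis, 4.83 in the median and 7.00 in D. willistoni at stage 2 (12 species). At stage 5 it was 0.0279 in D. miranda, 0.339 in the median and 0.835 in D. santomea (11 species). All ratios were above 1 at stage 2 and below 1 at stage 5, and it fell in 11 of 11 species. This ratio was chosen after the values were seen and is given as a description, with no test.

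**Figure D3:**
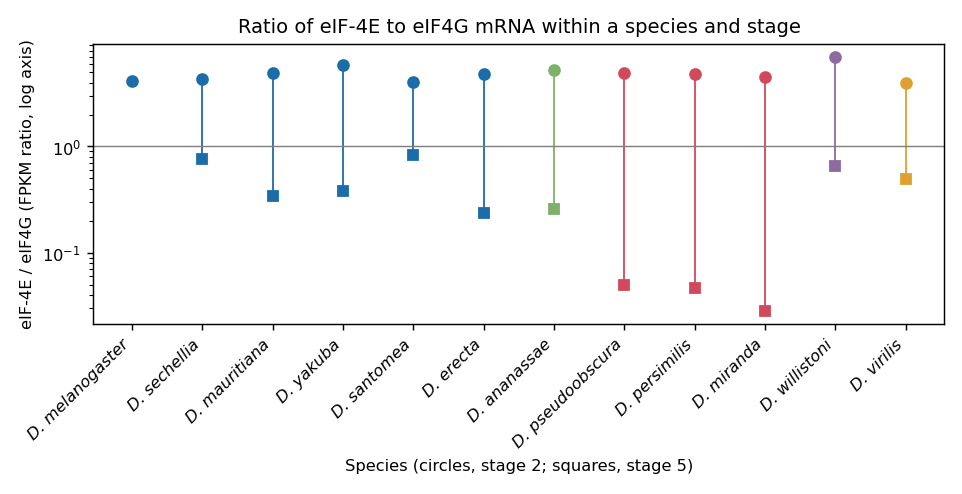
FPKM of eIF-4E divided by FPKM of eIF4G in each species at stage 2 (circles) and stage 5 (squares), on a log axis with a line at 1; colours mark clades as in the plot of stage changes. Stage 2 ratios lie between 3.96 and 7.00 and stage 5 ratios between 0.0279 and 0.835, lowest in the 3 species of the obscura group.

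eIF4G2, another eIF4G gene that in D. melanogaster is needed for male germ cell division, was at 5.81 FPKM in D. pseudoobscura, 23.0 in the median and 34.1 in D. mojavensis at stage 2. At stage 5 it was at 0.559 FPKM in D. virilis, 5.10 in the median and 10.3 in D. erecta. It fell by 2.01 ± 1.25 (SD, n = 12 species, adjusted p = 0.000119), lower in 11 of 12, most in D. mojavensis and D. virilis with -4.16 and -4.12, while D. erecta had 8.35 FPKM at stage 2 and 10.3 at stage 5. The ratio of eIF4G2 to eIF4G was 0.226 in the median species at stage 2 and 0.0266 at stage 5, lower in 11 of 11. With relatedness in the fit the change of eIF4G2 was -2.49 and was not called (adjusted p = 0.0586). It was called lower with 1 mean per clade, at -2.06 (limma, adjusted p = 0.00476).

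eIF-4a encodes the helicase of the cap complex. Its mRNA was at 321 FPKM in D. willistoni, 567 in the median and 852 in D. mojavensis at stage 2, and at 1337, 2522 and 3151 FPKM at stage 5. The stages did not overlap, with D. willistoni lowest and D. erecta highest at stage 5. It rose by 1.90 ± 0.45 (SD, n = 13 species, adjusted p = 5.3e-10), higher in 13 of 13. Relative to eIF-4a, eIF-4E went from 0.732 in the median species to 0.0277, lower in 12 of 12.

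eIF4AIII is the related helicase of the exon junction complex, which marks spliced mRNAs and takes part in localising oskar mRNA in the oocyte. At stage 2 it was at 68.1 FPKM in D. mojavensis, 102 in the median and 154 in D. miranda, and at stage 5 at 415 in D. virilis, 585 in the median and 976 in D. miranda. It rose by 2.50 ± 0.20 (SD, n = 12 species, adjusted p = 1.7e-12), the largest rise of the 24, with every species between 2.16 and 2.81. It was the only factor called higher under all 4 scalings, with 1.12 after quantile normalization and 1.15 with the same total. Its ratio to eIF-4a was higher at stage 5 in 12 of 12 species, at 0.252 against 0.156 in the median.

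eIF-4B, a cofactor of the helicase, was not tested because both stages were measured in only 4 species. It was at 146 to 366 FPKM at stage 2 and 612 to 688 at stage 5, higher in 4 of 4, and the stages did not overlap.

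**Figure D4:**
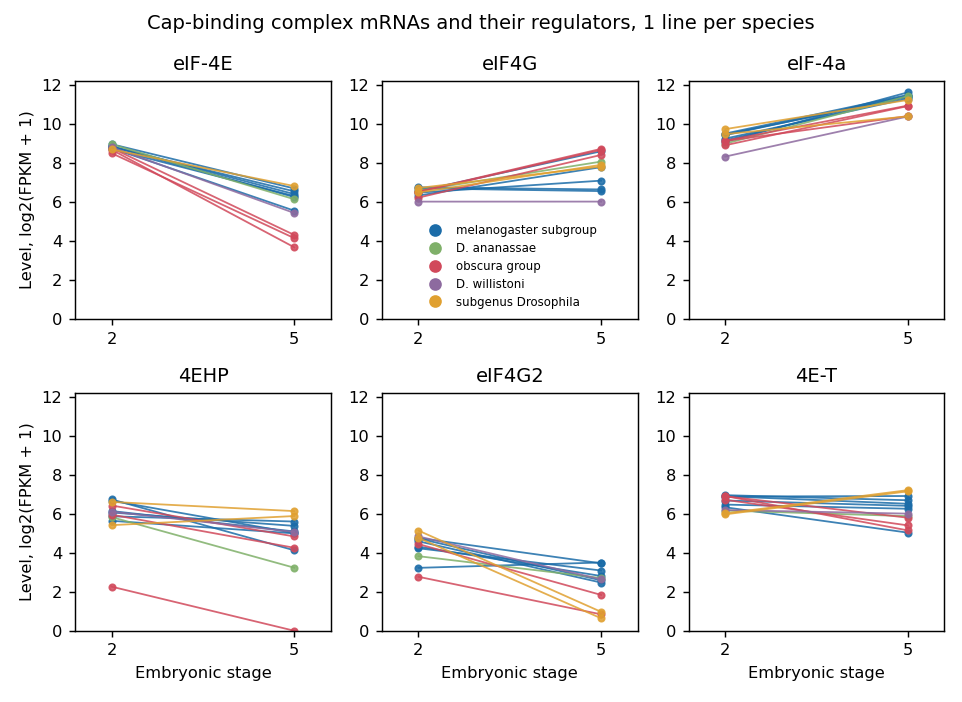
Levels at stage 2 and stage 5 in log2(FPKM + 1), with 1 line per species coloured by clade, for the cap-binding protein eIF-4E, the scaffolds eIF4G and eIF4G2, the helicase eIF-4a and the cap regulators 4EHP and 4E-T. eIF-4E starts between 361.5 and 498.9 FPKM and fans out to 11.8 to 111.9, while eIF-4a rises in all 13 species.

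4E-T binds eIF-4E and holds mRNAs in cytoplasmic repression granules. It was at 61.5 FPKM in D. virilis, 94.3 in the median and 123 in D. mauritiana at stage 2 and at 31.6 in D. simulans, 75.2 in the median and 147 in D. mojavensis at stage 5. Its change of -0.36 ± 0.88 (SD, n = 13) was not called (adjusted p = 0.181): 10 species were lower, D. erecta was at 0.03, and D. mojavensis and D. virilis were at 1.19 and 1.18. It was called lower after quantile normalization (-1.19) and with the same total (-1.67). eIF-4E was 4.59 times as high as 4E-T in the median species at stage 2 and 0.787 times at stage 5, lower in 12 of 12.

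A further 11 genes act in translational control at the cap or with its factors, not all of them on eIF-4E. Of these, 1 rose, 2 fell and 8 were not called, beside 30.9% and 16.5% of all genes. The number that fell was 4 when centred on the median gene, beside 22.9% of all genes, and 5 after quantile normalization, beside 21.1%. With the same total the number was 6, beside 41.3% of all genes. Among those that fell under each of these scalings were me31B and tral, components of repression granules. Thor, the fly 4E-BP that competes with eIF4G for eIF-4E, was at a median of 0.562 FPKM at stage 2 and 39.1 at stage 5, and rose by 4.07 ± 2.13 (SD, n = 10, adjusted p = 4.1e-05), higher in 10 of 10. cup, an eIF-4E-binding repressor of oskar and nanos mRNA, fell from a median of 192 to 46.7 FPKM, by 1.91 ± 0.86 (n = 13, adjusted p = 1.3e-06), lower in 13 of 13. mxt, which encodes the eIF-4E-binding protein Mextli, fell by 2.19 ± 1.02 (n = 13, adjusted p = 4.6e-06), also lower in 13 of 13. Thor rose and cup and mxt fell under all 4 scalings; with relatedness in the fit only mxt of these was called.

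The eIF3 complex holds the small ribosomal subunit ready for the mRNA. All 5 of its subunits named here rose, from 1.92 for eIF-3p66 to 2.17 for eIF-3p40, with a median of 2.00, and with relatedness in the fit all 5 were still called. eIF-3p40 was at 126 FPKM in D. melanogaster, 184 in the median and 248 in D. virilis at stage 2, and at 479 in D. mauritiana, 853 in the median and 1324 in D. ananassae at stage 5, with no overlap. eIF3-S8 was at 79.0, 119 and 206 FPKM and then at 347, 490 and 860, and rose by 2.08 ± 0.23 (n = 13, adjusted p = 5.2e-12). eIF3-S9 was at 146 FPKM in D. ananassae, 228 in the median and 349 in D. yakuba, then at 420 in D. ananassae, 931 in the median and 1303 in D. erecta, and rose by 2.00 ± 0.33 (n = 13, adjusted p = 3.2e-11).

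The subunits moved alike between genes and between species. In each species the 4 or 5 subunits measured had changes within 0.30 (D. santomea) to 1.19 (D. erecta) of each other, and the median subunit rose by 1.57 in D. mauritiana at the least and 2.36 in D. miranda at the most. Their standard deviations over species were 0.23 to 0.47, where the median tested gene had 0.93 and the median of the 24 tested factors 0.77. A small spread was not particular to eIF3, with 0.22 for eIF-1A, 0.20 for eIF4AIII and 0.32 for eIF-5A. Under quantile normalization their changes were 0.44 to 0.68 and with the same total 0.58 to 0.84. All were positive with an adjusted p in limma of at most 0.00212, but none reached the size of 1 for a call.

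A list of 12 further genes held initiation factors under other names, and also lig, pix, clu and vas, which are not initiation factors proper. Of the 12, 11 were tested and 9 rose, lig and pix among them, with a median change of 1.62, beside 30.9% of all genes. After quantile normalization the median change was 0.21 and 1 fell, beside 21.1% of all genes. With the same total the median change was 0.28 and 2 fell, beside 41.3%. Under neither did a member reach a rise of 1, where 17.9% and 8.58% of all genes were called higher. The eIF3 subunits Trip1, Tango7 and Int6 rose by 2.16, 2.11 and 2.03. vas, the germline helicase Vasa, had values at both stages in only 4 species and was not tested.

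eIF-5A, named as an initiation factor but known to act in elongation, had the highest median level of the factors at both stages. It was at 683 FPKM in D. miranda, 1522 in the median and 2022 in D. santomea at stage 2, and at 4330, 5760 and 9679 FPKM at stage 5 with the same species lowest and highest. The stages did not overlap, and it rose by 2.15 ± 0.32 (SD, n = 10 species, adjusted p = 3e-10), higher in 10 of 10. The 6 elongation factors proper all rose, with a median change of 1.81, beside 30.9% of all genes, led by EF2, the translocase, with 2.15 ± 0.21 (n = 12). After quantile normalization their median change was 0.24, with Ef1alpha48D at -0.43, and with the same total 0.57, and under neither did a member reach a rise of 1.

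eIF5, which triggers GTP hydrolysis by eIF2 at the start codon, was at 125 FPKM in D. willistoni, 195 in the median and 291 in D. sechellia and rose by 1.41 ± 0.44 (n = 12, adjusted p = 1.2e-07) to 272, 549 and 995 FPKM; after quantile normalization its change was -0.065. eIF5B, which joins the ribosomal subunits, was at 2.19 FPKM in D. willistoni, 34.9 in the median and 86.2 in D. santomea at stage 2, and at 1.02 in D. willistoni, 15.7 in the median and 76.2 in D. mojavensis at stage 5. Its change of -0.78 ± 0.88 (n = 13, adjusted p = 0.0116) was lower in 11 species but did not reach the size for a call; D. mojavensis and D. virilis went the other way. Centred on the median gene it was called lower, with -1.16.

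eIF6, which keeps the ribosomal subunits apart, was measured at both stages in only 4 species and was not tested. It went from 125 to 514 FPKM in D. miranda and from 87.4 to 271 in D. pseudoobscura, but from 116 to 29.98 in D. virilis and from 13.2 to 7.82 in D. mauritiana.

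eIF-1A, which helps the ribosome scan, rose by a modest and even 1.05 ± 0.22 (n = 13, adjusted p = 6.9e-09), higher in 13 of 13. Its level differed more between species than between stages: at stage 2 it was at 154 FPKM in D. miranda, 229 in the median and 1874 in D. sechellia, with 847 in D. willistoni and 692 in D. erecta, and at stage 5 at 301, 558 and 3012 FPKM. After quantile normalization its change was -0.54 and with the same total -0.28.

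The eIF2 complex carries the initiator tRNA. eIF-2alpha, the subunit whose phosphorylation slows translation, was higher at stage 5 in 13 of 13 species, by 0.89 ± 0.59, below the size for a call (adjusted p = 0.000155), but its mean was -0.33 after quantile normalization and -0.44 with the same total. eIF-2beta did not move in a common direction, with a mean of 0.05 ± 0.71, 6 species higher and 6 lower; it was called lower after quantile normalization (-1.07) and with the same total (-1.25). eIF-2gamma had a value in D. melanogaster at stage 2 only, 106.5 FPKM.

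The 5 subunits of eIF2B, the exchange factor of eIF2, had lower median levels at stage 2 than the eIF2 and eIF3 subunits, and standard deviations of the change over species of 0.92 to 1.15, near the 0.93 of the median tested gene. Only eIF2B-alpha was called, with a rise of 1.07 ± 0.97 (n = 13, adjusted p = 0.00177), and it lost the call when D. ananassae, D. pseudoobscura or D. miranda was left out. Scaled to the same total its change was -0.22, and with relatedness in the fit 0.98 (adjusted p = 0.51). The change with 1 mean per clade was 1.03 and was called (limma, adjusted p = 0.0435). eIF2B-epsilon, the catalytic subunit, was at 7.07 FPKM in D. mauritiana, 16.8 in the median and 45.9 in D. mojavensis at stage 2, and at 3.53 in D. erecta, 10.2 in the median and 129 in D. willistoni at stage 5. Its change of -0.56 ± 1.09 (n = 12) was not called (adjusted p = 0.126) and ran from -2.52 in D. erecta to 1.84 in D. willistoni. With the same total, eIF2B-epsilon and eIF2B-beta were called lower, at -1.79 and -1.08. Of the eIF2 kinases, Gcn2 fell by 1.35 ± 1.23 (n = 13, adjusted p = 0.00199) and PEK was not called.

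eRF1, the release factor, was at 111 FPKM in D. miranda, 158 in the median and 389 in D. mauritiana at stage 2. At stage 5 it was at 150 in D. willistoni, 495 in the median and 865 in D. mauritiana. The stages overlapped, and the change was 1.31 ± 0.83 (n = 13, adjusted p = 4.5e-05), higher in 13 of 13 but ranging from 0.16 in D. willistoni to 2.69 in D. miranda. After quantile normalization it was -0.12, with the same total -0.01, and with relatedness in the fit 1.35 (adjusted p = 0.0518). The change with 1 mean per clade was 1.23 and was called (limma, adjusted p = 0.00675). Of 3 further genes of termination and ribosome rescue, none reached the size for a call, although the adjusted p of all 3 in limma was under 0.05. Elf, the eRF3 of the fly, had a mean of -0.53 (adjusted p = 0.0486). The ribosome rescue factors pelo and HBS1 had means of -0.83 (adjusted p = 0.00418) and 0.99 (adjusted p = 0.000779). Elf was called lower after quantile normalization (-1.44) and with the same total (-1.81), and pelo under these and when centred on the median gene (-1.19, -2.11 and -1.20).

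**Figure D5:**
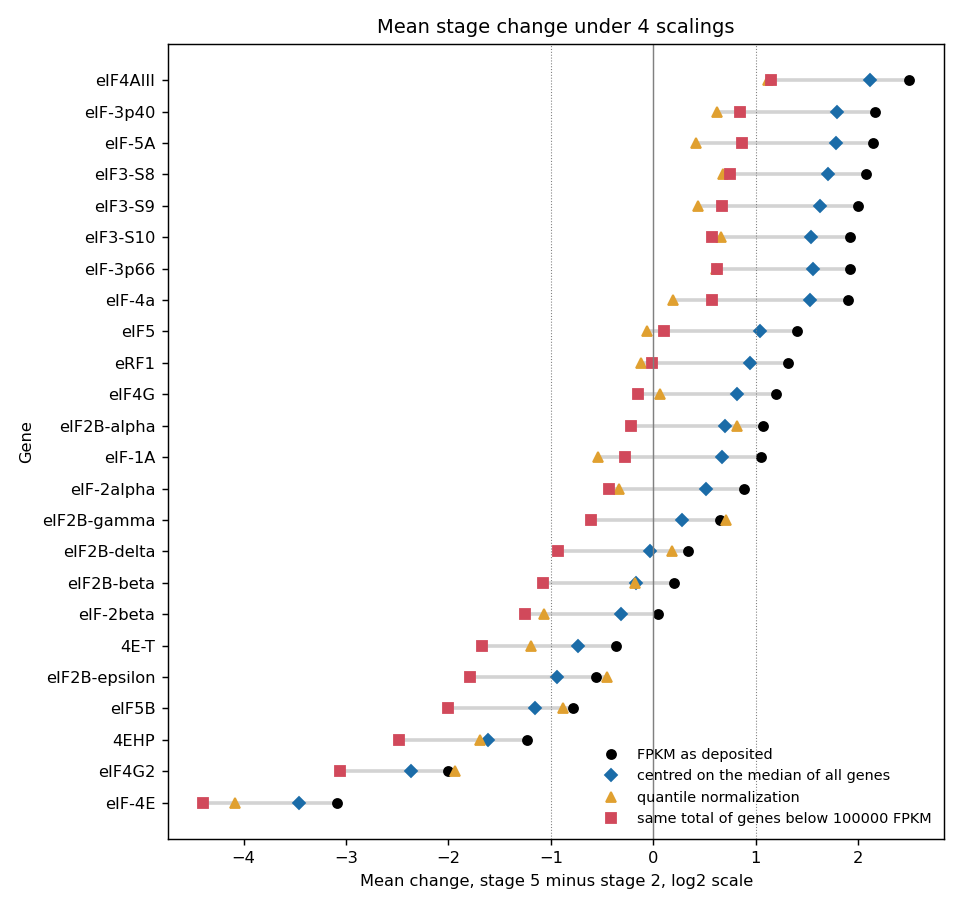
Mean change of each tested factor from stage 2 to stage 5 on the log2 scale, for FPKM as deposited and for 3 other scalings; dotted lines mark -1 and 1. eIF4AIII stays above 1 and eIF-4E, eIF4G2 and 4EHP stay below -1 in all 4, while eIF-1A is at 1.05 as deposited and at -0.54 after quantile normalization.

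Clades differed in how far single factors moved. The 3 species of the obscura group were compared with the 6 of the melanogaster subgroup that had both stages (7 at stage 2). This was done with limma on 5428 genes, 20 of them translation factors. Levels at a stage were centred on the median of each column, while the change between stages was not centred. For the change between stages 2 of the 20 were called, eIF-4E and eRF1, against 24.2% of all genes. eIF-4E changed by -4.35 to -5.0 in the obscura group and by -2.27 to -3.21 in the melanogaster subgroup, without overlap, a difference of -2.07 (SE 0.25, adjusted p = 0.000432). eRF1 changed by 2.23 to 2.69 in the obscura group and by 0.33 to 1.44 in the subgroup, a difference of 1.62 (SE 0.27, adjusted p = 0.00211).

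At stage 2 the eIF-4E levels of these clades overlapped, with means of 402 and 442 FPKM. The difference was -0.01 on the log2 scale (SE 0.14, adjusted p = 0.967). At stage 5 they did not, at 11.8 to 18.9 FPKM in the obscura group and 46.0 to 102.5 in the subgroup, a difference of -2.12 (SE 0.30, adjusted p = 0.00162). D. pseudoobscura and D. miranda differ from the subgroup also in RNA type, source, stage title and the sexing of stage 5 embryos, and clade and these cannot be told apart in them. D. persimilis, labelled polyA RNA and stage5 like the subgroup but also as mixed with some D. melanogaster mRNA, was at 18.9 FPKM. The part of clade or library type in these levels was not tested.

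Of levels at stage 2, 1 factor of 20 was called, against 12.1% of all genes. eIF2B-gamma was at 3.65 to 8.09 FPKM in the obscura group and 22.9 to 33.5 in the subgroup, a difference of -1.95 (SE 0.26, adjusted p = 0.00102). At stage 5, 2 of 20 were called, against 21%: eIF-4E, and eIF2B-delta, which was at 67.0 to 122 FPKM in the obscura group and 7.44 to 30.8 in the subgroup, a difference of 2.32 (SE 0.44, adjusted p = 0.00632). These shares are below those of all genes.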

How the data were processed

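The deposited tables hold 1 value per gene, species and stage, made by the authors by combining the embryos of a group. Per the submitters' processing notes, cutadapt, TopHat2, Cufflinks, Cuffnorm and Cuffdiff were used; neither their versions nor a genome build is given in the sources used here. That the deposited values are FPKM was inferred from these tools and the values. Column names sit 1 place right of their values in the wider table, which held identical values for the 3764 genes shared with the smaller table. Each of the 2 tables gave 27 columns for use and 1 that was left out; in all, 2 columns of D. melanogaster at stage 5 could not be tied to a sample. Depth is unknown, so no counting interval is given, and a value of 0 may be a failed estimate. For D. santomea the gene identifiers are those of D. yakuba. No sequence is shown.

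Stage 5 minus stage 2 of log2(FPKM + 1) was fitted per species with limma 3.58.1 in R 4.3.3 (eBayes with trend, two-sided, Benjamini-Hochberg over 7225 genes). Genes needed both stages in 10 species and a mean of 1 FPKM; calls were made at 0.05 for the adjusted p and at 1 for the size of the mean change. The p-values treat species as independent although they share ancestry, and the spread between embryos enters no test. Relatedness was put in by phylogenetic least squares (ape 5.8.1), on a tree whose branch lengths were computed from its branching order and not measured. As a second way, limma was fitted to 1 mean per clade, with 6 clades. The eIF4E copies were compared by exact sign-flip permutation, with all 21 pairs at both stages and for the change (63 tests), because the rule for a reference copy ended in a tie. The fits were first run on simulated data with known changes. The members, gene lists and tests were chosen with earlier results of these data known. Values are given for every eIF4E copy, 4EHP, 4E-T, eIF4G, eIF4A and release factor and for the 5 largest changes each way, and other factors are given by complex. Other scalings, pseudocounts, filters and species left out were tried as alternatives.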

Additional observations from a re-analysis of the deposited data

Results flagged for a closer look

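The gap of an extreme species to its nearest neighbour was set against Dixon's critical value in 72 groups. Each group held up to 7 values from the melanogaster subgroup, and 10 groups exceeded the critical value. Chance alone exceeds it in about 1 in 20 groups of independent values. Here species are related and groups of the same gene share values, so that rate may not hold. D. erecta stood apart 3 times, with eIF4G2 at 8.35 FPKM at stage 2 against 17.7 to 26.3 in the others, eIF-2alpha at 310.4 FPKM at stage 5 against 132 to 177, and a change of -2.52 in eIF2B-epsilon against -0.92 to -0.51. In D. simulans, 4E-T was at 31.6 FPKM at stage 5 against 75.2 to 119, with a change of -1.30 against -0.38 to 0.03. In D. santomea, eIF4AIII was at 792 FPKM at stage 5 against 526 to 575, and eIF-2beta at 61.1 FPKM at stage 2 against 88.4 to 113. The change of eIF-4E in D. mauritiana was -3.21 against -2.59 to -2.27. eIF3-S9 was at 349 FPKM at stage 2 in D. yakuba against 204 to 244, and eIF3-S10 at 82.7 in D. melanogaster against 106 to 122.

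Of 20 factors compared, 2 changed differently between clades by the test of the difference itself, beside 24.2% of all genes. The share of factors called is below that of all genes. The change of eIF-4E was more negative in the obscura group than in the melanogaster subgroup, by -2.07, and that of eRF1 was more positive, by 1.62. D. pseudoobscura and D. miranda differ from the subgroup also in RNA type, source, stage title and the sexing of embryos. The part of clade or library type in these changes was not tested.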

How the results depend on the processing

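The call of 13 factors higher and 3 lower depended most on scaling. Quantile normalization gave 1 and 5, and the same total of genes below 100000 FPKM gave 1 and 8. Requiring values in all 13 species left 14 factors to test, with 7 higher and 1 lower. Phylogenetic least squares left 10 higher and 1 lower. Fitting 1 mean per clade gave 14 higher, adding eIF-2alpha, and 3 lower. For these settings, and with species left out, the shares of all genes called are not given here, so the counts stand without a background. Leaving out each species in turn gave 12 to 13 higher and 3 lower each time; the 12 came without D. ananassae, D. pseudoobscura or D. miranda, when eIF2B-alpha was not called. Quantile normalization turned the mean change to -0.12 for eRF1, -0.065 for eIF5, -0.54 for eIF-1A, -1.07 for eIF-2beta, -0.33 for eIF-2alpha and -0.18 for eIF2B-beta. The same total turned it to -0.011 for eRF1, -0.15 for eIF4G, -1.08 for eIF2B-beta, -0.28 for eIF-1A, -0.22 for eIF2B-alpha, -1.25 for eIF-2beta, -0.44 for eIF-2alpha, -0.61 for eIF2B-gamma and -0.93 for eIF2B-delta. Centring on the median gene turned it to -0.17 for eIF2B-beta, -0.03 for eIF2B-delta and -0.32 for eIF-2beta. The cause of these turns was not tested beyond the shift of the median gene, which was 0.37 as deposited, 0.04 after quantile normalization and -0.53 with the same total. For the stage change over all species, pseudocounts of 0.1 and 5 and no filter on low values changed only the call of eIF2B-alpha, lost at 5.

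eIF-4E minus 4EHP ranged over species left out from 2.62 to 2.98 at stage 2, from 0.99 to 1.39 at stage 5 and from -1.87 to -1.62 for the change; in species not labelled as mixed it was 1.34 at stage 5 (exact test, p = 0.0625). Between clades, quantile normalization gave 4 factors for the change, adding 4E-T and eIF2B-gamma. It gave 2 at stage 2 and 3 at stage 5, adding eIF-5A to both. A pseudocount of 0.1 added 4E-T for the change. The shares of all genes called under these settings, and with species of the obscura group left out, are not given here. Whether these counts exceed such shares cannot be told. With species of the obscura group left out, the counts were 2 to 3 for the change, 1 to 2 at stage 2 (2 without D. pseudoobscura, adding eIF-5A) and 2 at stage 5. No paired analysis was possible because each column combines the embryos of a group and carries no replicate number, so embryos could not be matched; stages were compared within species throughout. Species are few and related, and depth is unknown, so changes of factors near 1 FPKM are the least certain.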
